A study of Mus musculus with 20 samples.

Results

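RNA of sorted control intestinal cells was compared between the embryo at E13.5 and the adult, in 2 libraries of each stage. These 4 were all the control intestine RNA libraries among the 12 RNA libraries and 20 samples of the series, and they were chosen by stage, organ and genotype, without use of any measured value. Embryonic libraries came from GFP+ cells of Bapx1-cre;Rosa26mTmG embryos, labelled C57BL/6, taken from the microdissected intestine after TrypLE digestion. In this reporter, Cre-expressing cells and their descendants lose membrane Tomato and gain membrane GFP, and Bapx1 is the former name of *Nkx3-2*, a homeobox gene of the early gut mesenchyme. Adult libraries are labelled WT, and per the methods of the study they came from GFP+ cells of Pdgfrβ Cre-ERT2/+;Rosa26mTmG mice of about 10 weeks. The study describes its mice as males and females of mixed backgrounds, which for the adult lines are 129 with C57BL/6 and C57BL/6J with CD-1. Adult mice of the study received tamoxifen, which activates Cre-ERT2, on 5 days and rested for 2 days, whereas the embryos received none. Small intestines were used in the adult, with villi scraped off before digestion, while the embryonic sample was not split by region. A directional kit for poly(A) RNA was used at the embryonic stage, and a kit for single cells or low input that keeps no strand was used for the adult. Stage therefore cannot be told apart from the Cre driver, the dissection, the dissociation or the library kit, and only large differences and classes of genes are described. Neither the labels nor the methods state whether each library held 1 animal or a pool, so p-values measure the spread between these libraries.

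Mesenchymal cells of the gut wall give rise to fibroblasts, smooth muscle, pericytes and interstitial cells of Cajal, and they signal to the epithelium through Wnt, BMP and Hedgehog pathways. In the embryo this layer grows and is patterned along the gut by transcription factors such as Hox proteins. In the adult its pericryptal and subepithelial fibroblasts are held to be a niche of the epithelial stem cells and to shape local immunity through chemokines, complement and antigen presentation.

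Genes that drive Cre in both lines were read first. *Nkx3-2* had 42.3 and 65.4 TPM in the embryonic and 0.111 and 0 TPM in the adult libraries, a ratio of 618 (111 to 24440.2) of embryonic over adult counts after scaling, with its 95% counting interval. *Pdgfrb* had 202 and 251 TPM in the embryonic and 77.04 and 57.2 TPM in the adult libraries (log2 fold change -1.08 ± 0.17 (SE), adjusted p = 0.00216), below the size called large here. Both embryonic libraries thus held transcripts of both drivers, whereas *Nkx3-2* was at or near 0 in the adult, with 1 read in both libraries together.

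Counts on genes were 36415106 and 30236159 in the embryonic libraries and 11404712 and 12225290 in the adult libraries. Levels per length are given as TPM, in which the length-scaled counts of a library are brought to one fixed total, computed with the gene lengths of the adult files and without spike-in rows. A difference is given as the adult minus embryonic log2 fold change of counts scaled by the TMM method, fitted with edgeR. Across genes with reads in both stages, the log2 ratio of TPM was lower than this fitted value by a median of 0.67, so a gene with unequal TPM can have a fitted change near 0. Log2 CPM values correlated at 0.994 between the embryonic libraries, 0.962 between the adult libraries and 0.552 to 0.557 between stages, which is a description across genes. A gene was called when its adjusted p was under 0.05 and its log2 fold change passed 3 in size, that is 8-fold. Of 16491 genes tested, 2991 were called higher in the adult (18.1%) and 1939 were called higher in the embryo (11.8%), and the median log2 fold change over all tested genes was 0.01. Every count of called members in a list below is to be read beside these shares. Scaling by the spike-in totals in place of TMM moved this median to -2.13 and gave 1816 genes higher in the adult and 5802 in the embryo, so each direction given here is relative to the median gene and a small positive value turns negative per spike-in. The size of that shift depended on the spike-in used, with a median of -3.25 when scaled by the ERCC counts alone and -1.07 by the SIRV counts alone.

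Gene length moved with the direction of change. Over 20 bins of gene length, the median log2 fold change went from 5.53 in the shortest bin to -1.12 in the longest. Protein-coding genes alone went from 1.14 to -1.14 between the shortest and the longest of 10 bins. Immunoglobulin and T cell receptor segments supplied 195 of the genes higher in the adult and pseudogenes supplied 515, whereas 1890 were protein-coding, as were 1800 of those higher in the embryo. After the median of each length bin was subtracted, 2479 genes were called higher in the adult (15.0%) and 1951 higher in the embryo (11.8%), and 2279 and 1498 genes were called in the same direction under both fits. The length-corrected value is therefore given for each named gene whose call it changes, and the count of a list is given again where it moves by 2 or more. How far the library kit accounts for the length pattern was not tested. Adult counting was unstranded and the strand setting of the embryonic counting is not given in the sources used here, so reads of genes that overlap a gene on the opposite strand cannot be assigned with certainty. Among the genes named below these are *Adh1*, *Bmp4*, *C1s1*, *Cbx7*, *Cela2a*, *Csf1r*, *Dbp*, *Dnmt3a*, *Dnmt3l*, *Eed*, *Ezh2*, *Fbn1*, *Foxf1*, *Gli1*, *H19*, *Hand2*, *Hhip*, *Hmga2*, *Hoxa4*, *Hoxa7*, *Hspa1a*, *Igf2*, *Igf2bp1*, *Igf2bp3*, *Meg3*, *Nnat*, *Rnf2*, *Sfrp2*, *Suz12*, *Tapbp* and *Wnt5a*.

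**Figure D1:**
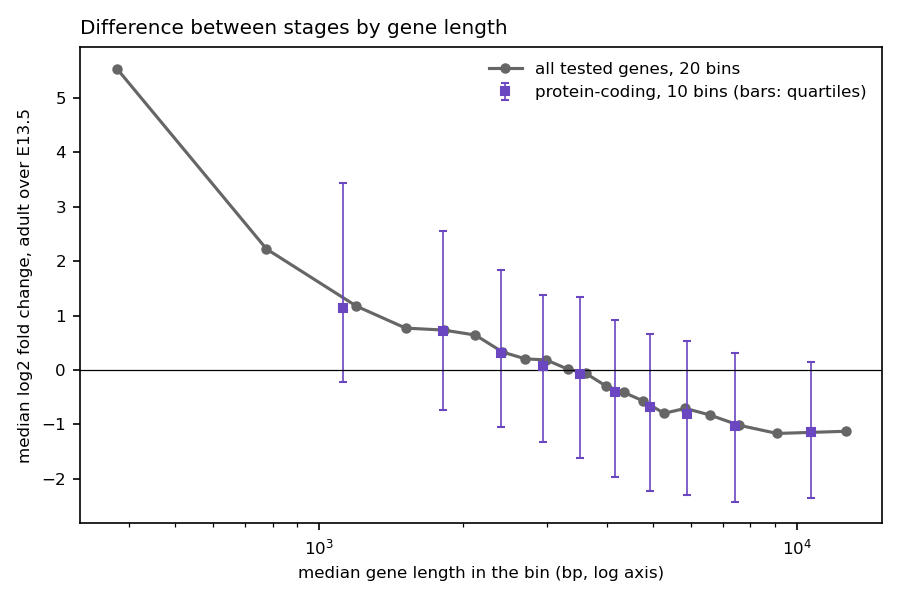
Median log2 fold change, adult over E13.5, against median gene length in base pairs on a log axis, for all tested genes in 20 bins (circles) and for protein-coding genes in 10 bins (squares, with bars for the quartiles). Both series fall as length rises, from 5.53 to -1.12 for all genes and from 1.14 to -1.14 for protein-coding genes.

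Spike-in RNA, added per the study's methods before library preparation, came as an ERCC part and a SIRV part, whose proportions differed between the stages. Embryonic libraries held 0.438 and 0.456 ERCC counts for each SIRV count, and adult libraries 1.94 and 2.06. The 21 ERCC transcripts with at least 10 counts in every library had log2 ratios between stages with an SD of 0.80, against 0.31 between the embryonic libraries and 0.39 between the adult libraries. Relative to their median the ratios ranged from -2.42 to 1.26, so none reached the size of 3 used for calling, although these transcripts span only 505 to 1991 bp. A spike-in lost from either kit could not enter this set, and centring on the median removes any shift common to all. The range therefore cannot show whether the kits alone could produce a call. Y-linked *Ddx3y*, *Eif2s3y*, *Kdm5d* and *Uty* had 345 to 2054 counts in the embryonic libraries and at most 1 count in the adult libraries, while *Xist*, expressed from the inactive X, had counts in all 4. These genes were added after their values were seen. Both embryonic libraries thus held Y-linked reads together with *Xist* reads (4476 and 1304 counts), so neither held reads of 1 sex alone. The adult libraries had almost no reads from these Y-linked genes, and sex is a further difference between the stages that cannot be told apart from age.

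Lists of marker genes were read for transcripts typical of each cell type. Such transcripts in a bulk library do not show that cells of that type were among the sorted ones. Core mesenchyme markers were present in both stages. *Col1a1* had 1729 and 2514 TPM in the embryonic and 1255 and 1259.5 TPM in the adult libraries, with a fitted log2 fold change of -0.08. Of 15 tested mesenchyme markers 3 were higher in the adult and 0 in the embryo, with a median log2 fold change of 0.63. Those 3 were *Dcn*, *Lum* and *Sparc*, all of which encode secreted matrix proteins, and *Lum* was below the threshold after length correction at 2.95. *Sparc* was 3.09, and 2.95 without the first embryonic library, which ends its call. *Pdgfra* had 395 and 399 TPM in the embryonic and 445 and 344 TPM in the adult libraries, and this receptor of platelet-derived growth factor, used to mark fibroblasts, was not called (log2 fold change 0.66 ± 0.15 (SE), adjusted p = 0.00847).

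Markers of immune cells separated the stages. The 20 macrophage markers summed to 34.1 and 41.3 TPM in the embryonic libraries and 1669 and 2348 TPM in the adult libraries, and 19 of 20 tested were called higher in the adult. *Csf1r* had 0.0848 and 0.126 TPM in the embryonic and 11.1 and 22.9 TPM in the adult libraries, and this receptor of colony-stimulating factor 1 defines macrophages (log2 fold change 7.99 ± 0.56 (SE), adjusted p = 8.8e-05). Markers of MHC class II and B cells summed to 7.92 and 7.82 TPM in the embryonic libraries and 8969.8 and 11355 TPM in the adult libraries, with 12 of 12 tested called. *Cd74* had 0.117 and 0.0726 TPM in the embryonic and 3926 and 5102 TPM in the adult libraries, a ratio of 74176 (25381 to 359696), and *Cd74* is the invariant chain of class II molecules. T, NK and innate lymphoid markers summed to 278 and 279 TPM in the embryonic libraries and 392 and 382 TPM in the adult libraries, much of it from *Id2*, which mesenchymal cells also express and which was singled out after its values were seen. They had 13 of 16 members called higher in the adult, and 8 members had no read in either embryonic library. *Cd3e* had 0 and 0 TPM in the embryonic and 3.18 and 6.42 TPM in the adult libraries, so this chain of the T cell receptor complex was low in the adult and not detected in the embryo. Constant regions *Igha* and *Igkc* and the joining chain *Igj* took 0.968% and 0.904% of adult counts. Medians of the macrophage, class II and T lists were 8.17, 9.46 and 9.01, or 8.11, 8.18 and 6.31 with genes absent from the embryo set to a lower bound of 3 reads over both libraries. Every comparison that follows between these bulk samples holds that difference in immune transcripts, and fewer cells of a type cannot be told apart from less RNA per cell.

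Transcripts of other lineages were also found. Epithelial markers summed to 116 and 189 TPM in the embryonic libraries and 733 and 915 TPM in the adult libraries, with 13 of 20 tested called higher in the adult (11 after length correction). *Epcam* had 6.05 and 5.77 TPM in the embryonic and 4.20 and 9.99 TPM in the adult libraries, and this pan-epithelial adhesion molecule was not called (log2 fold change 0.94 ± 0.46 (SE), adjusted p = 0.11), whereas the Paneth cell lysozyme *Lyz1* had 0.328 and 0.810 TPM in the embryonic and 573 and 510.0 TPM in the adult libraries. *Lyz1* alone thus supplied most of the epithelial sum in each adult library. Keratin genes, singled out after their values were seen, supplied most of that sum in each embryonic library. Of the 20 tested markers 18 had a log2 fold change above 0, and single members lay between -1.43 and 12.12. Enzymes of the exocrine pancreas were read in the adult. Of 12 listed pancreatic genes 6 were tested, and all 6 were called higher in the adult. Of those 6, 3 had no embryonic read, so they passed the filter on low counts through their adult reads alone and could only be called in that direction. The same holds for members of the other lists that had no embryonic read. *Cela2a* had 0 and 0 TPM in the embryonic and 234 and 89.7 TPM in the adult libraries, at least 3179.6-fold higher in the adult, and this elastase is a pancreatic digestive enzyme. Endothelial markers had 9 members called higher in the adult and 1 in the embryo of 20 tested (11 and 0 after length correction), with sums of 47.2 and 60.8 TPM in the embryonic libraries and 236 and 251 TPM in the adult libraries. Of 11 mast cell and granulocyte markers 5 were tested, 3 of them without an embryonic read, and 4 were called higher in the adult (2 after length correction). *Kit*, which mast cells share with interstitial cells of Cajal, was called higher in the embryo. *S100a8* had 0 and 0 TPM in the embryonic and 127 and 9.04 TPM in the adult libraries, so this neutrophil gene differed widely between the adult libraries, and neither it nor *S100a9* was called after length correction. Embryonic libraries instead held mesothelial and erythroid transcripts. *Upk3b*, which marks the serosal mesothelium, had 252 and 397 TPM in the embryonic and 5.599 and 7.25 TPM in the adult libraries. Of 9 mesothelial markers 6 were called higher in the embryo and 1 in the adult (7 and 0 after length correction). Embryonic globin *Hbb-y* had 44.6 and 21.8 TPM in the embryonic libraries and none in the adult, and 3 of 6 tested erythroid genes were called higher in the embryo. Of 12 tested enteric neural markers 1 was called higher in the embryo and 0 in the adult (0 and 1 after length correction). Of these 12, 7 had a log2 fold change above 0, with a median of 0.71. *Sox10* and *Ret* were at 0.641 TPM or less in every library, but members differed widely in level. The list summed to 166 and 165 TPM in the embryonic and 315 and 191 TPM in the adult libraries. Skeletal muscle had 1 of 5 called higher in the embryo. The part these cells play in the differences between stages was not tested.

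**Figure D2:**
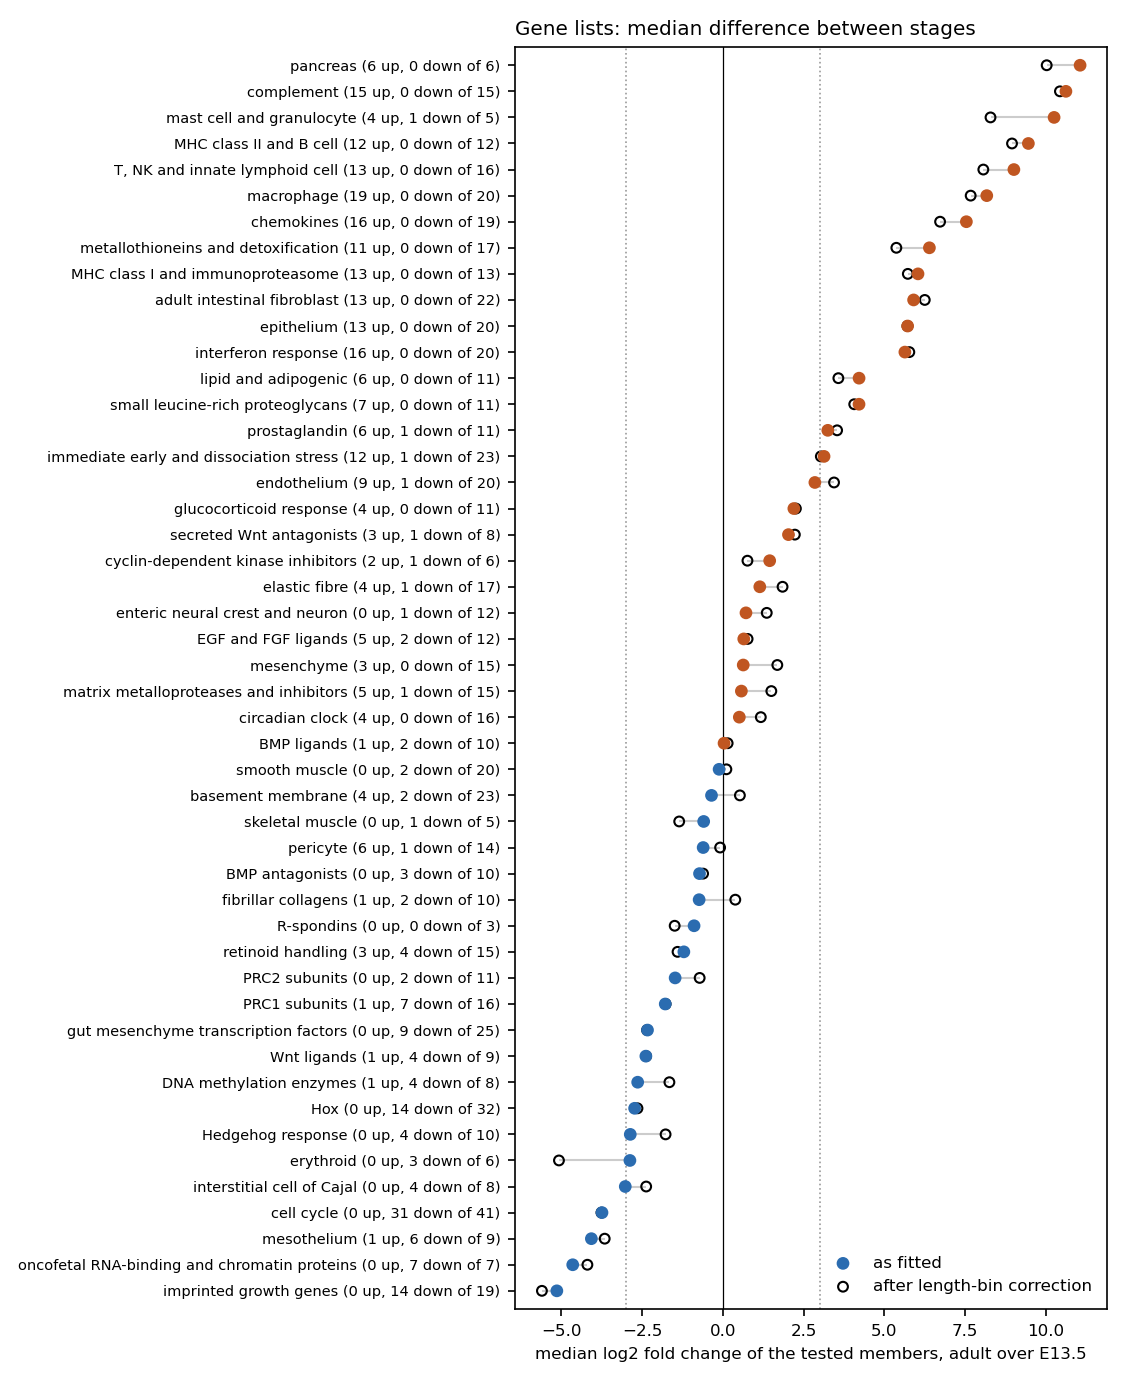
Median log2 fold change of the tested members of each gene list, adult over E13.5, as fitted (filled) and after length-bin correction (open). Names give the members called higher in the adult (up) and in the embryo (down) of those tested, and dotted lines mark the threshold of 3 in size. Complement (10.62) and pancreas (11.06) stand at the top and imprinted growth genes (-5.14) at the bottom.

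Markers of subtypes of mesenchyme were read next. Of 20 smooth muscle markers 0 were called higher in the adult and 2 in the embryo. Single members lay between -5.28 and 2.84 on the log2 scale around a median of -0.12. They summed to 10103 and 7401 TPM in the embryonic libraries and 5556 and 6285 TPM in the adult libraries. *Acta2* had 4123 and 2723 TPM in the embryonic and 1603 and 1924 TPM in the adult libraries (log2 fold change -0.29 ± 0.24 (SE), adjusted p = 0.319), and smooth muscle actin was not called although the adult libraries lay below both embryonic ones. *Pgm5* had 297 and 240.2 TPM in the embryonic and 2.69 and 5.89 TPM in the adult libraries (log2 fold change -5.28 ± 0.37 (SE), adjusted p = 9.1e-05), and this adhesion-plaque protein was one of the 2 called in the embryo. The other was *Synpo2*, which was -3.57 and fell short after length correction at -2.41. Pericyte markers did not move together. *Rgs5* had 124 and 162 TPM in the embryonic and 7544 and 6293 TPM in the adult libraries, and this regulator of G protein signalling was called higher in the adult (log2 fold change 6.27 ± 0.24 (SE), adjusted p = 1.7e-05). The TPM ratio of *Rgs5* to *Pdgfrb* was 0.614 and 0.648 in the embryonic and 97.9 and 110 in the adult libraries. *Cspg4* had 40.5 and 51.2 TPM in the embryonic and 9.93 and 12.6 TPM in the adult libraries, so the proteoglycan NG2 was lower in the adult, short of the threshold (log2 fold change -1.35 ± 0.18 (SE), adjusted p = 0.00103). In all 6 of 14 pericyte markers were called higher in the adult and 1 in the embryo (5 and 0 after length correction). Markers of interstitial cells of Cajal, the pacemaker cells of the gut, were higher in the embryo in 4 of 8 and in the adult in 0. *Kit* had 166 and 163 TPM in the embryonic and 7.70 and 3.74 TPM in the adult libraries (log2 fold change -4.18 ± 0.32 (SE), adjusted p = 0.000124), so the receptor that defines these cells was lower in both adult libraries than in either embryonic one. The channel *Ano1* had 74.5 and 61.1 TPM in the embryonic and 12.2 and 17.8 TPM in the adult libraries and was not called (log2 fold change -1.50 ± 0.23 (SE), adjusted p = 0.00171).

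Markers of adult intestinal fibroblasts were called higher in the adult in 13 of 22, with a median log2 fold change of 5.90 against 0.01 over all tested genes. *Adamdec1* had 154 and 232 TPM in the embryonic and 21422 and 21299 TPM in the adult libraries (log2 fold change 7.47 ± 0.29 (SE), adjusted p = 1.8e-05), making this secreted metalloprotease of lamina propria fibroblasts the gene with the highest TPM in both adult libraries. *Dpt*, a matrix protein of adventitial fibroblasts, went from 0.144 and 0.356 TPM to 5421 and 5083 TPM. *Foxl1* and *Grem1*, a telocyte factor and a BMP antagonist of fibroblasts below the crypts, were not called. *Foxl1* had 22.8 and 27.5 TPM in the embryonic and 3.59 and 3.54 TPM in the adult libraries (log2 fold change -2.14 ± 0.23 (SE), adjusted p = 0.0004). *Grem1* had 31.6 and 25.7 TPM in the embryonic and 53.9 and 54.6 TPM in the adult libraries (log2 fold change 1.59 ± 0.16 (SE), adjusted p = 0.000296). *Foxl1* was thus lower and *Grem1* higher in both adult libraries than in either embryonic one.

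The genes with the greatest change that the naming rule allowed are given next, first those higher in the adult. *Igha*, *Igkc* and the variable segment *Igkv8-30* encode immunoglobulin chains and had no read in either embryonic library. *Igha* had 0 and 0 TPM in the embryonic and 3901 and 3288 TPM in the adult libraries, at least 110911-fold higher in the adult, against 3 reads over both embryonic libraries. The class II chain *H2-Aa* (at least 10648-fold), the interferon-induced GTPase *Tgtp2* (at least 12911-fold), the noncoding RNA *AW112010* (at least 17366-fold), the carboxylesterase *Ces1d* (at least 23451-fold), the stromelysin *Mmp3* (at least 11048-fold) and the Paneth cell defensin *Defa24* (at least 8162-fold) were likewise absent from the embryo, and *Cd74*, described above, completed the list. Members of the defensin, immunoglobulin, carboxylesterase and Tgtp families have near-identical copies between which reads can be split, as have *H2-K1* and other class I genes and the globins, so the values of single members are uncertain.

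The 10 named genes higher in the embryo had no read in either adult library, and all 10 held at least 12 TPM in both embryonic ones. Genes of cartilage and tendon were among them. *Col11a1* had 19.6 and 26.6 TPM in the embryonic and 0 and 0 TPM in the adult libraries, at least 500.2-fold higher in the embryo, and its product joins cartilage and other embryonic fibrils. *Scx*, a transcription factor of tendon progenitors, had 44.3 and 54.6 TPM in the embryonic libraries (at least 127-fold higher), and the cartilage collagen *Col9a1* had 15.9 and 14.5 TPM (at least 177-fold). The others were the neurotensin receptor *Ntsr1* (at least 309-fold), *Brinp1* (at least 382-fold), the glutamate receptor auxiliary protein *Neto2* (at least 268-fold), the neuronal pentraxin *Nptx1* (at least 213-fold), *Sh3gl3* (at least 178-fold), *Nell2* (at least 174-fold) and the endolysosomal channel *Mcoln3* (at least 116-fold).

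Genes of the cell cycle were higher in the embryo. Of 41 listed genes, all tested, 31 were called higher in the embryo and 0 in the adult, with a median log2 fold change of -3.74 (-3.76 after length correction). *Cdk1* had 86.1 and 95.9 TPM in the embryonic and 3.70 and 4.78 TPM in the adult libraries (log2 fold change -3.74 ± 0.18 (SE), adjusted p = 3e-05), and this kinase drives entry into mitosis. *Mcm2* had 231 and 215 TPM in the embryonic and 10.4 and 9.78 TPM in the adult libraries (log2 fold change -3.80 ± 0.13 (SE), adjusted p = 1.4e-05), so this subunit of the replicative helicase was lower in both adult libraries by a similar factor. *Mki67* had 5.84 and 19.1 TPM in the embryonic and 0.265 and 0.457 TPM in the adult libraries, and this proliferation marker was lower in the adult although its embryonic libraries also differed from each other (log2 fold change -4.41 ± 0.69 (SE), adjusted p = 0.00186). *Top2a* had 157 and 199.9 TPM in the embryonic and 3.15 and 4.50 TPM in the adult libraries (log2 fold change -4.86 ± 0.24 (SE), adjusted p = 2.9e-05), and it encodes the topoisomerase of dividing cells. *Ccnb1* had 109 and 114 TPM in the embryonic and 3.16 and 2.90 TPM in the adult libraries, and cyclin B1 was -4.53 on the log2 scale. Every listed gene had a log2 fold change under 0, the smallest in size being -1.10.

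Inhibitors of cyclin-dependent kinases did not share a direction. *Cdkn1c* had 1989 and 2025 TPM in the embryonic and 5.23 and 3.85 TPM in the adult libraries (log2 fold change -8.12 ± 0.19 (SE), adjusted p = 1.2e-05), and this imprinted inhibitor p57 is abundant in embryonic mesenchyme. *Cdkn1a* had 2.20 and 1.47 TPM in the embryonic and 77.9 and 69.8 TPM in the adult libraries (log2 fold change 5.98 ± 0.24 (SE), adjusted p = 1.9e-05), and p21, a target of p53 and of stress pathways, was thus higher in the adult. The INK4 inhibitor *Cdkn2b* had 0 and 0.147 TPM in the embryonic and 1.91 and 3.43 TPM in the adult libraries, a ratio of 65.5 (17.00 to 559). *Cdkn2a* had at most 0.0707 TPM in any library and was not tested.

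Imprinted genes are expressed from 1 parental allele and many regulate fetal growth. Of 19 tested, 14 were called higher in the embryo and 0 in the adult, with a median of -5.14, and they summed to 15967 and 18125 TPM in the embryonic libraries and 496 and 456 TPM in the adult libraries. *Igf2* had 2093 and 2685 TPM in the embryonic and 0.532 and 0.898 TPM in the adult libraries (log2 fold change -11.01 ± 0.31 (SE), adjusted p = 1.3e-05), and *Igf2* is the fetal insulin-like growth factor. Its neighbour *H19*, a noncoding RNA, had 6393 and 7454 TPM in the embryonic libraries and no read in the adult, at least 37142-fold higher. *Dlk1* had 521 and 639.9 TPM in the embryonic and 0.202 and 0.125 TPM in the adult libraries (log2 fold change -11.11 ± 0.25 (SE), adjusted p = 1.2e-05), and this Notch-related surface protein is a marker of fetal progenitors. *Nnat* had 1002 and 1014 TPM in the embryonic and 23.9 and 19.4 TPM in the adult libraries (log2 fold change -4.87 ± 0.15 (SE), adjusted p = 1.3e-05), so it remained readily detected in the adult at a lower level. *Meg3*, the maternally expressed noncoding RNA of the *Dlk1* domain, had 11.4 and 9.78 TPM in the embryonic and 6.04 and 4.52 TPM in the adult libraries and was not called (log2 fold change -0.34 ± 0.18 (SE), adjusted p = 0.141).

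Oncofetal proteins bind RNA or chromatin in fetal tissues and are silenced in most adult ones. All 7 tested members of 8 were called higher in the embryo, and 6 remained so after length correction. *Hmga2* had 362 and 275 TPM in the embryonic and 0.0843 and 0.157 TPM in the adult libraries (log2 fold change -10.66 ± 0.33 (SE), adjusted p = 1.3e-05). *Igf2bp1* had 34.6 and 31.3 TPM in the embryonic and 0.0197 and 0 TPM in the adult libraries, a ratio of 2195 (394 to 86728), and this protein binds *Igf2* mRNA. *Igf2bp3* had 182 and 168 TPM in the embryonic and 2.32 and 1.10 TPM in the adult libraries (log2 fold change -6.02 ± 0.30 (SE), adjusted p = 3.1e-05). *Lin28b*, which blocks maturation of let-7 microRNAs, was low in the embryo at 1.59 and 1.57 TPM and lower in the adult at 0.0705 and 0.0328 TPM, a ratio of 19.5 (6.58 to 95.5).

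**Figure D3:**
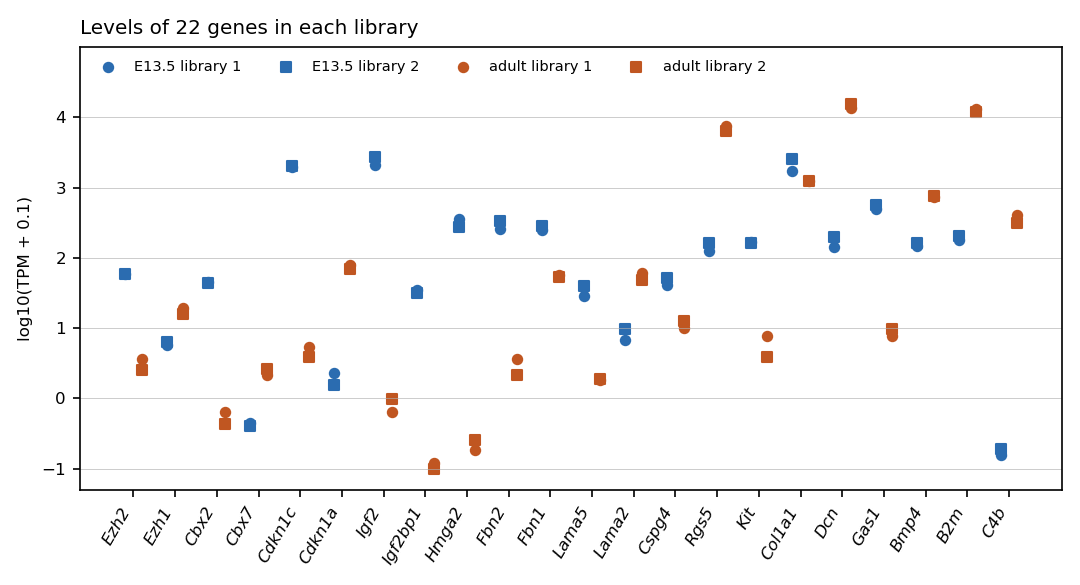
Levels of 22 genes in each library as log10(TPM + 0.1), with E13.5 libraries in blue and adult libraries in orange, and circles and squares for the first and second library. *Ezh2* and *Cbx2* lie higher in the embryo and *Ezh1* and *Cbx7* higher in the adult, while *Igf2*, *Igf2bp1* and *Hmga2* fall to the bottom of the scale in the adult.

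Polycomb genes are the subject of the wider study, and their levels in controls are given here. Polycomb repressive complex 2 (PRC2) methylates histone H3 through the alternative catalytic subunits EZH2, typical of dividing cells, and EZH1, with EED and SUZ12 as core partners. *Ezh2* had 58.7 and 59.5 TPM in the embryonic and 3.50 and 2.40 TPM in the adult libraries (log2 fold change -3.65 ± 0.20 (SE), adjusted p = 3.8e-05). *Ezh1* had 5.63 and 6.19 TPM in the embryonic and 19.3 and 16.05 TPM in the adult libraries (log2 fold change 2.25 ± 0.15 (SE), adjusted p = 7.9e-05). The TPM ratio of *Ezh2* to *Ezh1* was 10.4 and 9.61 in the embryonic and 0.182 and 0.150 in the adult libraries, so the order of the paralogues was opposite in the 2 stages. *Eed* had 50.6 and 55.1 TPM in the embryonic and 34.8 and 38.1 TPM in the adult libraries and was not called (log2 fold change 0.14 ± 0.14 (SE), adjusted p = 0.389), whereas *Suz12* had 69.8 and 75.3 TPM in the embryonic and 6.43 and 3.26 TPM in the adult libraries (log2 fold change -3.24 ± 0.30 (SE), adjusted p = 0.00024), and without the second adult library its value was -2.855, below the threshold. After length correction *Ezh2* was -2.83, *Suz12* -2.67 and *Ezh1* 3.27, which leaves *Ezh1* as the only PRC2 gene past the threshold. In all, 2 of 11 PRC2 genes were called higher in the embryo and 0 in the adult (0 and 1 after length correction), against 11.8% and 18.1% of all tested genes.

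PRC1, which ubiquitylates histone H2A, contains 1 of several CBX proteins that bind the PRC2 mark. *Cbx2* had 44.96 and 44.5 TPM in the embryonic and 0.537 and 0.333 TPM in the adult libraries (log2 fold change -6.01 ± 0.24 (SE), adjusted p = 1.9e-05). *Cbx7* had 0.345 and 0.300 TPM in the embryonic and 2.08 and 2.54 TPM in the adult libraries (log2 fold change 3.50 ± 0.37 (SE), adjusted p = 0.00042), so these paralogues also had opposite orders. The TPM ratio of *Cbx2* to *Cbx7* was 130 and 148 in the embryonic and 0.258 and 0.131 in the adult libraries, although *Cbx7* did not exceed 3 TPM anywhere. *Bmi1* had 74.98 and 74.9 TPM in the embryonic and 4.02 and 3.08 TPM in the adult libraries (log2 fold change -3.73 ± 0.17 (SE), adjusted p = 2.6e-05), and the catalytic subunit *Rnf2*, at 122 and 113 TPM and 27.4 and 29.4 TPM, was not called. Of 16 PRC1 genes, 7 were called higher in the embryo and 1 in the adult, or 3 and 1 after length correction. Among enzymes of DNA methylation, 4 of 8 were called higher in the embryo and 1 in the adult (1 and 1 after length correction). *Uhrf1* had 133 and 133 TPM in the embryonic and 2.19 and 2.20 TPM in the adult libraries (log2 fold change -5.24 ± 0.14 (SE), adjusted p = 1.3e-05), and this factor guides the maintenance methylase to replicating DNA. *Dnmt1* had 71.2 and 96.9 TPM in the embryonic and 5.92 and 5.45 TPM in the adult libraries, and this maintenance enzyme itself was -3.21 as fitted and -2.38 after length correction. *Dnmt3a* had 77.7 and 83.3 TPM in the embryonic and 5.89 and 3.11 TPM in the adult libraries, with -3.49 and -2.37 for this de novo methylase. *Dnmt3l*, a catalytically inactive cofactor named here after its value was seen, was the member higher in the adult, with 26.1 and 25.1 TPM there and no read in the embryo (at least 887-fold).

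Hox genes encode position along the body axis, and those of the highest paralogue numbers are expressed most posteriorly. Of 32 tested genes 14 were called higher in the embryo and 0 in the adult, with a median log2 fold change of -2.73. Paralogues 1 to 4 had 4 of 8 tested genes called, paralogues 5 to 9 had 2 of 15, and paralogues 10 to 13 had 8 of 9. Summed levels of paralogues 10 to 13 were 97.8 and 94.3 TPM in the embryonic and 0.979 and 1.55 TPM in the adult libraries, and 8 of the 12 genes had no adult read. Of those 8, 3 had none in the embryo either, so 5 had reads in the embryo alone. Summed levels of paralogues 5 to 9 were 380 and 370 TPM in the embryonic and 110 and 121 TPM in the adult libraries, a smaller gap. Medians were -2.98, -0.75 and -8.89 for these groups in order, and the last was -5.52 with genes absent from the adult at their lower bound. *Hoxa4* had 72.7 and 62.2 TPM in the embryonic and 1.55 and 2.33 TPM in the adult libraries (log2 fold change -4.43 ± 0.29 (SE), adjusted p = 6.9e-05). *Hoxa2* had 21.1 and 23.02 TPM in the embryonic and 12.6 and 10.7 TPM in the adult libraries (log2 fold change -0.25 ± 0.22 (SE), adjusted p = 0.352), so neighbours in 1 cluster differed in size of change. *Hoxb8* had 27.6 and 31.5 TPM in the embryonic and 0.217 and 0.538 TPM in the adult libraries (log2 fold change -5.58 ± 0.39 (SE), adjusted p = 8.6e-05). *Hoxc4* and *Hoxa7*, singled out after their values were seen, lay the other way, short of the threshold. *Hoxc4* had 25.5 and 25.2 TPM in the embryonic and 77.5 and 66.4 TPM in the adult libraries (log2 fold change 2.18 ± 0.14 (SE), adjusted p = 6e-05). *Hoxa7* had 13.8 and 13.2 TPM in the embryonic and 17.2 and 24.9 TPM in the adult libraries (log2 fold change 1.32 ± 0.23 (SE), adjusted p = 0.00281). The embryonic intestine was taken whole and the adult samples were small intestine, so region and stage cannot be told apart here, and neither can the GFP+ population.

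**Figure D4:**
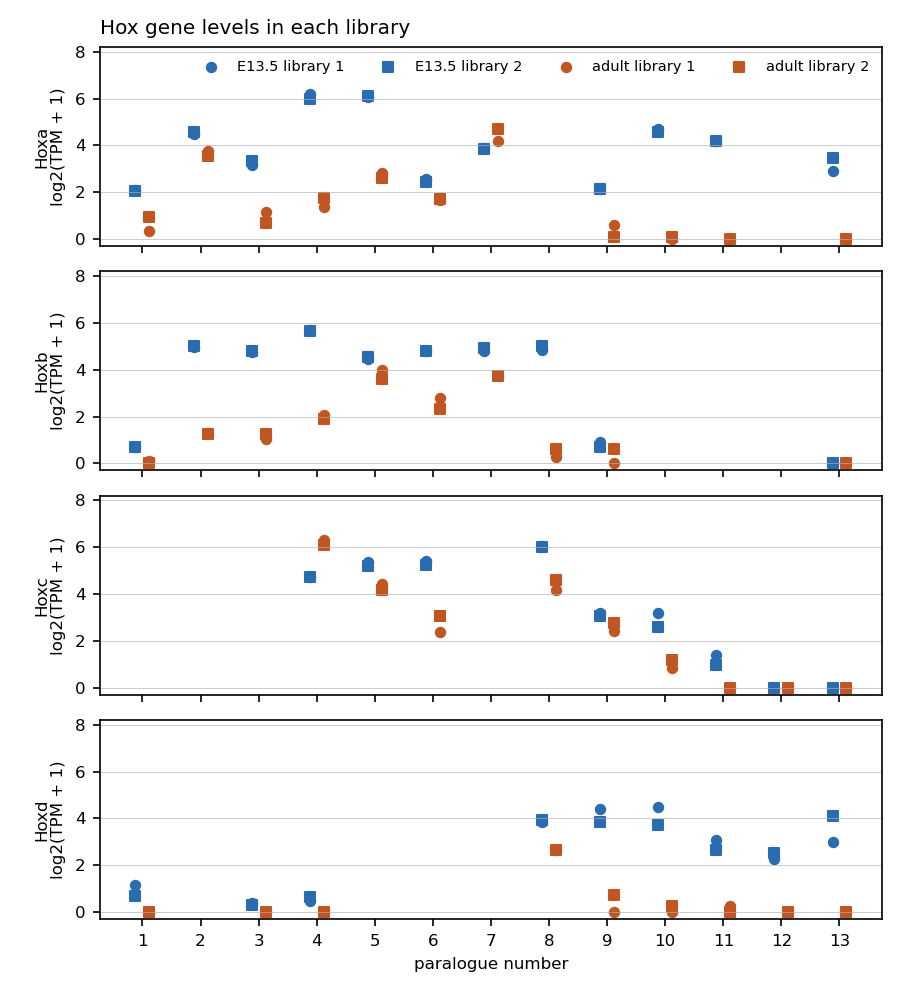
Hox gene levels in each library as log2(TPM + 1) against paralogue number, with 1 panel for each cluster, E13.5 libraries in blue and adult libraries in orange. Paralogues 10 to 13 are near 0 in the adult apart from *Hoxc10*, while several paralogues 5 to 9 lie closer to the embryonic level and *Hoxc4* lies above it.

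Other transcription factors of the gut mesenchyme were lower in the adult or not called. Of 25 tested, 9 were called higher in the embryo and 0 in the adult, with a median of -2.33. *Nkx2-3* had 214 and 259 TPM in the embryonic and 364 and 348 TPM in the adult libraries (log2 fold change 1.26 ± 0.12 (SE), adjusted p = 0.000297), so this homeobox gene of the intestinal and splenic mesenchyme was read at over 200 TPM in both stages, unlike its relative *Nkx3-2*. *Foxf1* had 454 and 427 TPM in the embryonic and 56.2 and 47.02 TPM in the adult libraries, lower in the adult but short of the threshold (log2 fold change -2.42 ± 0.13 (SE), adjusted p = 4.1e-05), and this forkhead factor is a Hedgehog target in gut mesenchyme. *Hand1* had 138 and 137 TPM in the embryonic and 0.763 and 0.710 TPM in the adult libraries (log2 fold change -6.86 ± 0.19 (SE), adjusted p = 1.3e-05). *Hand2* had 172 and 219 TPM in the embryonic and 1.45 and 1.11 TPM in the adult libraries (log2 fold change -6.58 ± 0.22 (SE), adjusted p = 1.4e-05), and both basic helix-loop-helix factors were far lower in each adult library. *Meis2* had 122 and 119.9 TPM in the embryonic and 5.94 and 5.30 TPM in the adult libraries, with a log2 fold change of -3.75 that was -2.63 after length correction.

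Hedgehog ligands come from the gut epithelium and act on the mesenchyme, where *Ptch1*, *Gli1* and *Hhip* are target genes. *Gli1* had 38.3 and 41.4 TPM in the embryonic and 2.49 and 4.16 TPM in the adult libraries, just below the threshold (log2 fold change -2.90 ± 0.27 (SE), adjusted p = 0.000256) and past it without the second adult library at -3.355. *Ptch1* had 242 and 223 TPM in the embryonic and 19.7 and 15.8 TPM in the adult libraries, just past it (log2 fold change -3.04 ± 0.15 (SE), adjusted p = 3.1e-05), and the value was -1.88 after length correction, -2.98 without the first embryonic library and -2.92 without the second adult library, each of which ends the call. *Hhip* had 66.7 and 44.5 TPM in the embryonic and 33.2 and 36.3 TPM in the adult libraries and was not called (log2 fold change -0.01 ± 0.22 (SE), adjusted p = 0.974). The signal transducer *Smo* and the co-receptors *Gas1* and *Cdon* were called higher in the embryo. *Gas1* had 495 and 567 TPM in the embryonic and 7.65 and 9.51 TPM in the adult libraries (log2 fold change -5.27 ± 0.17 (SE), adjusted p = 1.4e-05). *Cdon* had 105 and 109 TPM in the embryonic and 0.0740 and 0.459 TPM in the adult libraries (log2 fold change -7.93 ± 0.45 (SE), adjusted p = 4.3e-05). Of 10 pathway genes 4 were called higher in the embryo and 0 in the adult, or 3 and 0 after length correction, with medians of -2.87 and -1.77.

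Wnt ligands had 9 tested members of 19, of which 4 were called higher in the embryo and 1 in the adult, or 2 and 0 after length correction. *Wnt5a* had 179 and 148 TPM in the embryonic and 11.4 and 8.29 TPM in the adult libraries, and this noncanonical ligand elongates the embryonic gut (log2 fold change -3.39 ± 0.20 (SE), adjusted p = 5.1e-05, -2.38 after length correction). *Wnt2b* had 27.1 and 40.1 TPM in the embryonic and 30.4 and 38.1 TPM in the adult libraries (log2 fold change 0.71 ± 0.22 (SE), adjusted p = 0.0285), and this canonical ligand of the crypt niche overlapped between stages. *Wnt4* had 4.01 and 8.27 TPM in the embryonic and 27.01 and 16.5 TPM in the adult libraries (log2 fold change 2.51 ± 0.40 (SE), adjusted p = 0.00207), higher in both adult libraries but below the threshold, which it passed without the second embryonic library at 3.06. R-spondins, which amplify Wnt signals on stem cells, had none called of 3 tested. *Rspo3* had 105 and 98.6 TPM in the embryonic and 32.6 and 24.6 TPM in the adult libraries (log2 fold change -1.16 ± 0.17 (SE), adjusted p = 0.00134), so this main R-spondin of the intestine was present in both stages. Secreted Wnt antagonists had 3 of 8 called higher in the adult and 1 in the embryo. *Sfrp1* had 654 and 647 TPM in the embryonic and 1021 and 975 TPM in the adult libraries (log2 fold change 1.29 ± 0.12 (SE), adjusted p = 0.000244). *Dkk3* had 46.1 and 46.8 TPM in the embryonic and 464 and 519 TPM in the adult libraries (log2 fold change 4.08 ± 0.14 (SE), adjusted p = 1.4e-05). *Sfrp2* had 70.2 and 106 TPM in the embryonic and 0.796 and 0.823 TPM in the adult libraries (log2 fold change -6.08 ± 0.32 (SE), adjusted p = 3.5e-05). Members of this family thus moved in opposite directions.

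BMP ligands and their antagonists, which oppose and preserve the crypt stem cell state, differed gene by gene. *Bmp4* had 145 and 163 TPM in the embryonic and 744 and 749.8 TPM in the adult libraries (log2 fold change 2.95 ± 0.12 (SE), adjusted p = 1.9e-05), close to the threshold, and *Bmp2* had 2.05 and 2.51 TPM in the embryonic and 22.7 and 21.7 TPM in the adult libraries (log2 fold change 3.96 ± 0.21 (SE), adjusted p = 3.4e-05), both higher in the adult. *Gdf10* had 85.5 and 82.9 TPM in the embryonic and 4.02 and 0.989 TPM in the adult libraries (log2 fold change -4.42 ± 0.50 (SE), adjusted p = 0.000522), lower in each adult library. Of 10 ligands 1 was called higher in the adult and 2 in the embryo, and of 10 antagonists 0 and 3, against 18.1% and 11.8% of all tested genes. *Fst* had 209 and 116 TPM in the embryonic and 0.733 and 1.29 TPM in the adult libraries (log2 fold change -6.64 ± 0.47 (SE), adjusted p = 8.7e-05), and this antagonist follistatin was one of those 3. Noggin, encoded by *Nog*, had 21.8 and 13.53 TPM in the embryonic and 0 and 0.209 TPM in the adult libraries, a ratio of 105 (28.97 to 869). EGF and FGF ligands had 5 of 12 called higher in the adult and 2 in the embryo. *Ereg* had 0.0200 and 0 TPM in the embryonic and 70.4 and 53.3 TPM in the adult libraries, a ratio of 8862 (1589 to 350142), and epiregulin is a ligand of the EGF receptor. *Fgf7* had 0.0765 and 0.221 TPM in the embryonic and 25.3 and 18.5 TPM in the adult libraries, and this keratinocyte growth factor acts on epithelium (log2 fold change 7.88 ± 0.43 (SE), adjusted p = 4e-05). Neuregulin *Nrg1* had 13.8 and 14.02 TPM in the embryonic and 5.61 and 4.04 TPM in the adult libraries and was not called (log2 fold change -0.86 ± 0.28 (SE), adjusted p = 0.033).

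Genes of the extracellular matrix were read by class. Of 10 tested fibrillar collagens, 1 was called higher in the adult and 2 in the embryo, against 18.1% and 11.8% of all tested genes. *Col3a1* had 1922 and 2467 TPM in the embryonic and 1041 and 1147 TPM in the adult libraries (log2 fold change -0.33 ± 0.17 (SE), adjusted p = 0.135). Small leucine-rich proteoglycans, which coat collagen fibrils, summed to 962 and 1120.5 TPM in the embryonic libraries and 20451 and 23217 TPM in the adult libraries, with 7 of 11 called higher in the adult (6 after length correction). *Dcn* had 142 and 196 TPM in the embryonic and 13681 and 15644 TPM in the adult libraries (log2 fold change 7.12 ± 0.26 (SE), adjusted p = 1.6e-05), and decorin alone supplied most of that sum. *Bgn* had 51.1 and 62.9 TPM in the embryonic and 668 and 657 TPM in the adult libraries (log2 fold change 4.21 ± 0.15 (SE), adjusted p = 1.6e-05). *Aspn* had 29.5 and 40.9 TPM in the embryonic and 1127 and 1241 TPM in the adult libraries (log2 fold change 5.75 ± 0.21 (SE), adjusted p = 1.6e-05). Each of these 3 proteoglycans was higher in both adult libraries than in either embryonic one.

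Elastic fibre and basement membrane genes were called in shares not far from the 18.1% and 11.8% of all tested genes. *Fbn2* had 262 and 332 TPM in the embryonic and 3.52 and 2.05 TPM in the adult libraries (log2 fold change -6.06 ± 0.29 (SE), adjusted p = 2.9e-05), and fibrillin 2 is the fetal fibrillin. *Fbn1* had 247 and 287 TPM in the embryonic and 57.5 and 52.6 TPM in the adult libraries, below the threshold (log2 fold change -1.60 ± 0.12 (SE), adjusted p = 0.000124), and the TPM ratio of *Fbn2* to *Fbn1* was 1.06 and 1.15 in the embryonic and 0.0613 and 0.0389 in the adult libraries. *Fbln5* had 17.1 and 26.2 TPM in the embryonic and 345 and 328 TPM in the adult libraries (log2 fold change 4.64 ± 0.23 (SE), adjusted p = 3e-05), so fibulin 5 of mature elastic fibres was among the 4 of 17 genes called higher in the adult, with 1 called in the embryo. *Lama5* had 28.7 and 39.3 TPM in the embryonic and 1.72 and 1.82 TPM in the adult libraries (log2 fold change -3.58 ± 0.20 (SE), adjusted p = 3.9e-05, -2.46 after length correction), whereas *Lama2* had 6.62 and 9.71 TPM in the embryonic and 60.6 and 47.7 TPM in the adult libraries (log2 fold change 3.41 ± 0.22 (SE), adjusted p = 6.6e-05). These laminin alpha chains, of epithelial and mesenchymal basement membranes, moved apart, and of 23 basement membrane genes 4 were called higher in the adult and 2 in the embryo. Matrix metalloproteases and their inhibitors had 5 of 15 called higher in the adult and 1 in the embryo. *Mmp10* had 0.0481 and 0.179 TPM in the embryonic and 2324 and 1440.0 TPM in the adult libraries (log2 fold change 14.64 ± 0.49 (SE), adjusted p = 1.4e-05), and stromelysin 2 was thus close to 0 in the embryo. *Mmp2* had 393 and 403 TPM in the embryonic and 1574 and 1658 TPM in the adult libraries and was not called (log2 fold change 2.70 ± 0.13 (SE), adjusted p = 2.7e-05).

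Genes of antigen presentation and interferon response were higher in the adult in nearly all cases. MHC class I molecules display peptides cut by the immunoproteasome on almost all cell types. All 13 tested genes of this list were called higher in the adult (12 after length correction), with a median of 6.04 and sums of 242 and 264 TPM in the embryonic libraries and 20514 and 18540.0 TPM in the adult libraries. *B2m* had 180.2 and 204 TPM in the embryonic and 13159.8 and 11722 TPM in the adult libraries, and this light chain of class I was 6.69 as fitted and 4.47 after length correction. *H2-K1* had 2.29 and 0.510 TPM in the embryonic and 1375 and 1021 TPM in the adult libraries (log2 fold change 10.34 ± 0.61 (SE), adjusted p = 4.9e-05), with a gap between the embryonic libraries that was small beside the gap between stages. *Tapbp* had 14.5 and 16.9 TPM in the embryonic and 564 and 626 TPM in the adult libraries (log2 fold change 5.92 ± 0.16 (SE), adjusted p = 1.3e-05), and tapasin loads peptides on class I. Constitutive subunits of the proteasome core, which were listed as a comparison, had none called of 14 and a median of 0.51. The macrophage and class II lists were higher in the same adult libraries, as given above, and whether class I transcripts came from those cells or from GFP+ fibroblasts was not tested.

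Interferon-stimulated genes are turned on through an element, the ISRE, that holds the letters GAAANNGAA (N is any base). Of 20 tested genes 16 were called higher in the adult (18 after length correction) and 0 in the embryo, with a median of 5.63. *Isg15* had 0.219 and 0.271 TPM in the embryonic and 78.1 and 70.5 TPM in the adult libraries (log2 fold change 8.80 ± 0.34 (SE), adjusted p = 1.7e-05). *Ifit3* had 0.285 and 0.352 TPM in the embryonic and 182 and 145 TPM in the adult libraries (log2 fold change 9.64 ± 0.24 (SE), adjusted p = 1.2e-05). *Ifit1* had 0 and 0.0771 TPM in the embryonic and 31.8 and 26.3 TPM in the adult libraries, a ratio of 1336 (369 to 11054), so 3 classical targets were near 0 in both embryonic libraries and expressed in both adult ones.

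Promoters of these 3 targets are shown because the element occurs in each. They are RefSeq sequences of 300 bases in build GRCm38.p6, 250 before and 50 after the annotated start, 5′ to 3′ along the gene, and capitals mark matches to GAAANNGAA or its reverse complement, which overlap in *Ifit1* and *Isg15*. *Ifit1* is on chr19:34640639-34640938 on the plus strand, *Ifit3* on chr19:34583279-34583578 on the plus strand and *Isg15* on chr4:156200769-156201068 on the minus strand.
Ifit1: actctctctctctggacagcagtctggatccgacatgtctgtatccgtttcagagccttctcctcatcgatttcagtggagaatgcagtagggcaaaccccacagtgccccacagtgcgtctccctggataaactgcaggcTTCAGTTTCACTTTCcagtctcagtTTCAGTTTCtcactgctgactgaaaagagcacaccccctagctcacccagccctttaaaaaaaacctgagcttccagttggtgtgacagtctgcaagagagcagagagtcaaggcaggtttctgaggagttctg
Ifit3: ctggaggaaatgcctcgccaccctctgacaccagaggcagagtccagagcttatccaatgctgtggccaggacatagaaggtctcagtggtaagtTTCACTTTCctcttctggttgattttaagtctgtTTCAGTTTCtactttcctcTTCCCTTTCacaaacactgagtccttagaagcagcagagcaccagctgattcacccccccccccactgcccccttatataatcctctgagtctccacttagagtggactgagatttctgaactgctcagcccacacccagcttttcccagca
Isg15: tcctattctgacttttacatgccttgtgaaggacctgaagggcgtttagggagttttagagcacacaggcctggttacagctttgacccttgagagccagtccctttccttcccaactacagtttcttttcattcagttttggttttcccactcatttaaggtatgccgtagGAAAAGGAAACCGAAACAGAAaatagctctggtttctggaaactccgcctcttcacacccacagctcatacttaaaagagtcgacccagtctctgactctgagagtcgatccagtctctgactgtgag
Of 22 interferon genes, 18 had a promoter in the RefSeq table and 12 of those (66.7%) held the letters on either strand, against 9.76% of all 27025 genes with a promoter there and 8.91% of the tested ones. A match is only a match of letters. In the control intestine at E13.5, ATAC-seq, which finds open chromatin, gave no peak within 1000 bp of the start of *Ifit3* or *Isg15* and a peak of 3.68-fold enrichment at *Ifit1*. *Ifit3* and *Isg15* were exceptions, since 18 of 20 interferon genes had a peak within 1000 bp and all 20 had one within 5000 bp.

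Chemokines and complement components, both made by stromal as well as immune cells, had the same direction. Of 19 chemokines 16 were called higher in the adult and 0 in the embryo. *Cxcl12* had 163 and 173 TPM in the embryonic and 611 and 605 TPM in the adult libraries and was not called (log2 fold change 2.53 ± 0.12 (SE), adjusted p = 2.9e-05), although both adult libraries were above both embryonic ones, and it passed the threshold after length correction at 3.54. *Ccl11* had 14.5 and 21.8 TPM in the embryonic and 3752 and 2534 TPM in the adult libraries (log2 fold change 8.12 ± 0.33 (SE), adjusted p = 1.9e-05), and eotaxin recruits eosinophils. *Cxcl13* had 32.1 and 43.5 TPM in the embryonic and 549 and 340.0 TPM in the adult libraries (log2 fold change 4.23 ± 0.28 (SE), adjusted p = 7.3e-05), and this chemokine organises lymphoid follicles. All 15 tested complement genes of 16 were called higher in the adult, with a median of 10.62, or 10.24 with absent genes at their bound. *C3* had 0.161 and 0.279 TPM in the embryonic and 420.0 and 316 TPM in the adult libraries (log2 fold change 11.39 ± 0.30 (SE), adjusted p = 1.2e-05). *C1s1* had 0.926 and 1.18 TPM in the embryonic and 1100.4 and 971 TPM in the adult libraries (log2 fold change 10.62 ± 0.20 (SE), adjusted p = 1.2e-05). *Serping1* had 52.3 and 66.4 TPM in the embryonic and 4844 and 4897 TPM in the adult libraries (log2 fold change 7.04 ± 0.20 (SE), adjusted p = 1.3e-05), so this inhibitor of the C1 proteases was already present in the embryo.

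Immediate early genes respond within minutes to handling and digestion of tissue, and they were listed here together with other stress genes. The stages were digested differently, so digestion cannot be told apart from stage, and its part in these differences was not tested. Of 23 listed genes 12 were called higher in the adult and 1 in the embryo. *Hspa1a* had 4.72 and 1.86 TPM in the embryonic and 668 and 698 TPM in the adult libraries (log2 fold change 8.34 ± 0.47 (SE), adjusted p = 4.2e-05). *Dusp1* had 29.5 and 16.9 TPM in the embryonic and 857 and 1077 TPM in the adult libraries (log2 fold change 6.04 ± 0.36 (SE), adjusted p = 4.9e-05). *Fos* had 474 and 231 TPM in the embryonic and 1716 and 1675 TPM in the adult libraries, just under the threshold (log2 fold change 2.93 ± 0.36 (SE), adjusted p = 0.000748), which it passed without the first embryonic library at 3.55. The heat shock gene *Hspa1a* has a near-identical copy, so its own value is uncertain. Detoxifying enzymes and metallothioneins had 11 of 17 called higher in the adult and 0 in the embryo. *Adh1* had 1.00 and 0.963 TPM in the embryonic and 427 and 440.5 TPM in the adult libraries (log2 fold change 9.44 ± 0.16 (SE), adjusted p = 1.2e-05). *Sod3* had 0.696 and 0.516 TPM in the embryonic and 426 and 537 TPM in the adult libraries (log2 fold change 10.28 ± 0.27 (SE), adjusted p = 1.2e-05), so an alcohol dehydrogenase and the extracellular superoxide dismutase were near 1 TPM or less in the embryo. Metallothionein *Mt1*, a very short transcript with 1.38 and 1.71 TPM and 227 and 233 TPM, was 7.87 as fitted and 2.37 after length correction.

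Retinoid genes were called in both directions, with 3 of 15 higher in the adult and 4 in the embryo, against 18.1% and 11.8% of all tested genes. *Aldh1a2* had 663 and 637 TPM in the embryonic and 201 and 176 TPM in the adult libraries (log2 fold change -1.11 ± 0.12 (SE), adjusted p = 0.000415). *Aldh1a3* had 2.03 and 2.64 TPM in the embryonic and 299 and 159.7 TPM in the adult libraries (log2 fold change 7.29 ± 0.39 (SE), adjusted p = 3.7e-05), and both enzymes make retinoic acid. *Crabp1*, which binds retinoic acid in the embryo, had 57.5 and 36.1 TPM there and no adult read (at least 87.7-fold higher). Lipid genes had 6 of 11 and prostaglandin genes 6 of 11 called higher in the adult, against 0 and 1 in the embryo. *Apoe* had 11.5 and 16.9 TPM in the embryonic and 2219 and 3227 TPM in the adult libraries (log2 fold change 8.27 ± 0.34 (SE), adjusted p = 2e-05). *Ptgs2* had 3.797 and 3.51 TPM in the embryonic and 35.4 and 27.3 TPM in the adult libraries (log2 fold change 3.77 ± 0.19 (SE), adjusted p = 3.2e-05), so apolipoprotein E and the inducible cyclooxygenase were higher in both adult libraries. Glucocorticoid targets had 4 of 11 called higher in the adult, yet *Fkbp5* had 28.9 and 27.7 TPM in the embryonic and 2.54 and 1.98 TPM in the adult libraries, the opposite direction (log2 fold change -2.98 ± 0.18 (SE), adjusted p = 5.6e-05), and it passed the threshold without the second embryonic library at -3.06 and without the first adult library at -3.155. Clock genes had 4 of 16 called higher in the adult and 0 in the embryo, against the same 18.1% and 11.8% of all tested genes. *Arntl* had 5.87 and 5.04 TPM in the embryonic and 61.7 and 43.4 TPM in the adult libraries (log2 fold change 3.93 ± 0.23 (SE), adjusted p = 4.9e-05). *Dbp* had 12.5 and 16.2 TPM in the embryonic and 3.30 and 4.15 TPM in the adult libraries (log2 fold change -1.26 ± 0.27 (SE), adjusted p = 0.00703). These clock genes peak at opposite times of day, and the sources used here give no time of collection. The D-box letters TTATGTAA were found in 1 of 14 clock promoters (7.14%) against 1.11% of all, and no other clock motif was searched. The CArG box was found in 1 of 16 smooth muscle promoters (6.25%) against 1.81%, so each share rests on 1 promoter.

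Classes of transcripts that library chemistry handles differently were read as well. Ribosomal protein genes, which are short, took 6.23% and 6.21% of counts in the embryonic and 2.39% and 2.67% in the adult libraries, and of 80 tested 1 was called higher in the adult and 3 in the embryo, or 1 and 33 after length correction. Replication-dependent histone genes, whose mRNA lacks a poly(A) tail, had 8 of 35 called higher in the adult and 6 in the embryo, or 3 and 17 after length correction, which turned the direction of their median from 1.15 to -2.44. Mitochondrially encoded genes took 2.498% and 2.03% of counts in the embryonic and 2.06% and 1.67% in the adult libraries, and their median likewise turned from 0.86 to -1.06. No direction is therefore read from these classes.

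Accessible chromatin of the control embryonic intestine offered a separate readout of the embryonic state. The deposited list holds broad ATAC-seq peaks called on pooled replicates, so no spread can be given. A peak lay within 1000 bp of the gene start for 82.7% of 16461 tested genes whose exons lie at one locus, for 92.5% of 1934 genes higher in the embryo and for 43.8% of 2979 genes higher in the adult. Genes called in neither direction had one in 91.1% of 11548. The 2991 genes called higher in the adult included 195 immunoglobulin and T cell receptor segments and 515 pseudogenes. Some of the 2991 had no embryonic read and passed the filter on low counts through the adult libraries alone. How far this selection accounts for their lower share was not tested. Among protein-coding genes the shares were 89.1% of all tested, 93.7% of those higher in the embryo, 55.9% of those higher in the adult and 94.4% of those not called, so embryo-higher genes lay close to genes not called. By list, all 41 cell cycle genes and all 25 gut mesenchyme transcription factors had such a peak, as did 30 of 32 Hox genes. Lists higher in the adult differed among themselves. Interferon genes had a peak in 18 of 20 and class I genes in 12 of 13, whereas complement genes had one in 9 of 15, macrophage markers in 8 of 20 and T, NK and innate lymphoid markers in 4 of 16. *B2m*, at 204 TPM or less in the embryo, had a promoter peak of 8.71-fold enrichment, and *H2-Aa*, with no embryonic read, one of 5.61-fold. *C3* had none within 1000 bp, and *Dcn* had one of 5.60-fold.

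**Figure D5:**
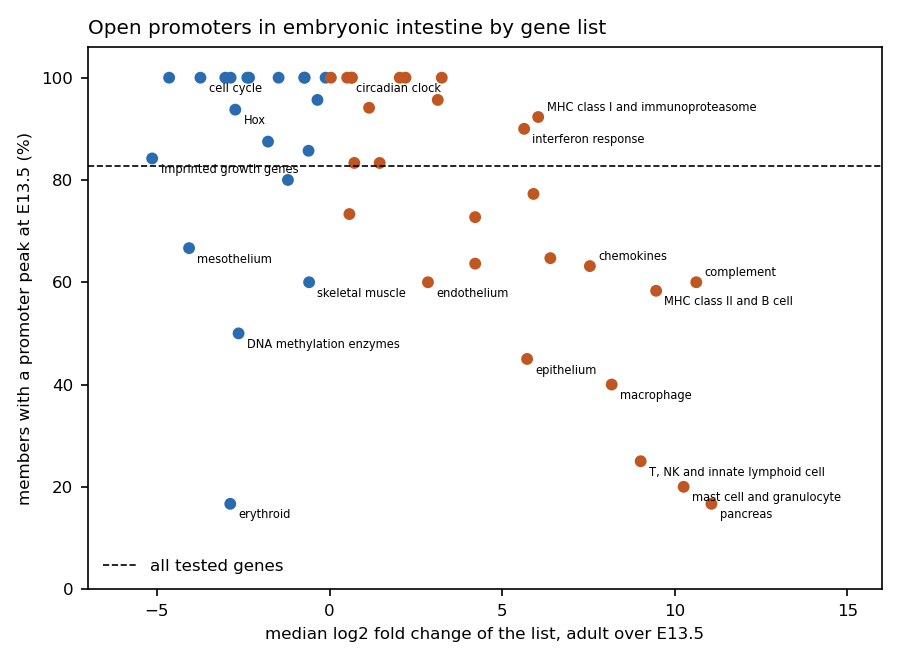
Share of members of each gene list with an ATAC-seq peak within 1000 bp of the gene start in control E13.5 intestine, in percent, against the median log2 fold change of the list, adult over E13.5. Each point is a list with at least 5 members that could be placed, and the dashed line marks the 82.7% of all tested genes. Blue points have a median below 0 and orange points one above it. Most blue points lie above the line, with erythroid genes, DNA methylation enzymes and mesothelial markers among the exceptions, and pancreas, mast cell and T cell lists lie lowest on the right.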

How the data were processed

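Gene counts of sorted cells from control intestine at E13.5 and in the adult were analysed, with 2 libraries in each stage. Per the labels and methods, the authors trimmed reads with Trimmomatic 0.32, aligned them to mm10 with STAR 2.5.1b and counted them on GENCODE genes with featureCounts, and deposited raw read counts, which were used unchanged. The authors called broad ATAC-seq peaks with MACS2 2.1.2 on pooled replicates, and the deposited list gives a fold enrichment (a ratio over background) and a -log10 q-value for each peak. Spike-in rows were removed, TPM values were computed from counts and the deposited gene lengths, and edgeR 4.0.16 was fitted (filterByExpr, TMM, quasi-likelihood test, Benjamini-Hochberg adjustment). DESeq2 1.42.0 served as an alternative and bedtools 2.31.1 joined peaks to gene starts. On simulated counts, with 100 of 16491 genes changed at each size, the test recovered 98% and 99% of genes changed by a log2 size of 4 and 5. Those counts were drawn from the fitted levels and spread, without a length trend or a difference between kits. The simulation checks only that the fit runs as intended, and it says nothing about calls under those conditions.

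For a gene without reads in a stage, the fold is a lower bound against 3 counts over both libraries of that stage, and for 1 to 3 counts a ratio is given with its 95% interval, which covers counting error only. Members and lists were chosen with earlier results of these data known. Named genes were the 10 largest called changes in each direction with at least 10 TPM in the higher stage, leaving out predicted genes and antisense overlaps, then from each list its first 4 genes and up to 4 called members of highest TPM, and the Cre driver genes.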

Additional observations from a re-analysis of the deposited data

How the results depend on the processing

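Scaling by spike-in totals moved the median log2 fold change of all tested genes to -2.13 and the counts to 1816 genes higher in the adult and 5802 higher in the embryo. With 2 alternatives chosen after seeing the data, the median was -3.25 with 1425 and 8967 genes when scaled by ERCC counts alone, and -1.07 with 2303 and 3636 genes when scaled by SIRV counts alone. Relative to that median, *Arntl*, *Bgn*, *Bmp2*, *Cbx7*, *Cxcl13*, *Dkk3*, *Fbln5*, *Lama2*, *Lum*, *Ptgs2* and *Sparc* had much the same values, but none of these 11 passed the threshold on the spike-in scale itself. With a log2 fold change of 1 in place of 3 as the limit, 5442 and 5221 genes were called, with a limit of 4 the embryonic count was 1075, and edgeR's glmTreat against a log2 fold change of 3 called 1155 in the embryo. Protein-coding genes alone, an alternative chosen after seeing the data, gave 1890 in the adult. Leaving out 1 library at a time gave 2722 to 2881 genes higher in the adult and 1798 to 2262 in the embryo, and the lone library of a stage was then assumed to vary like the other stage. DESeq2 called 3033 and 1776 genes, and a fit of all 12 RNA libraries called 3679 and 2344. A replicate block gave 2987 and 1969, but the numbers of the embryonic and adult libraries pair no animals, and the correlation of the deviations of same-numbered libraries was -0.01. Widening the promoter window to 5000 bp gave shares of 62.3% for adult-higher and 97.1% for embryo-higher genes, while keeping only peaks with a -log10 q of 5 or more gave 36.02% and 88.8%.

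Sign changes among the named genes were limited to genes that were not called. Leaving out 1 library at a time, *Acta2* ranged from -0.6007 to 0.05056, *Col1a1* from -0.3237 to 0.1632 and *Hhip* from -0.317 to 0.3211. *Col1a1* was 0.009432 with DESeq2, 0.009434 with its size factors and 0.7486 after length correction, and *Col3a1* and *Meg3* were 0.8385 and 0.7897 after length correction. *Eed* was -0.03222 without a filter on low counts and -0.5009 after length correction. *Hhip* was 0.07941 with DESeq2, 0.07921 with its size factors, 0.02049 with a minimum of 1 TPM, 0.5595 after length correction and 0.02408 with the replicate block. The cause of these changes was not tested. With 2 libraries in each stage, an exact permutation test of a single value cannot go below a two-sided p of 0.333, so calls rest on the spread shared across genes. Low values in the adult are limited by depth, since 3 counts corresponded to 0.263 and 0.245 CPM there against 0.0824 and 0.0992 CPM in the embryo.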
